A study of Mus musculus with 4 samples.

Results

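Collagens are the fibrous and sheet-forming proteins of the extracellular matrix, and this account covers the collagen chain genes and the enzymes and chaperone that make and cross-link collagen, measured in the mouse embryonal carcinoma line P19. A gene was a member when a probe set carried a single annotated symbol for a collagen chain (Col, a number, a and a number), for a lysyl oxidase (Lox, Loxl1 to Loxl4), for a prolyl 4-hydroxylase alpha subunit (P4ha1 to P4ha3), for a lysyl hydroxylase (Plod1 to Plod3) or for the chaperone Serpinh1. This gave 46 genes with 74 probe sets, among 12393 named genes and 22626 probe sets. Of 57 symbols listed for these classes, 11 were not analysed here: Loxl2, P4ha3, Col6a4, Col6a5, Col6a6, Col8a2, Col21a1, Col23a1, Col24a1, Col27a1 and Col28a1. P19 cells turn towards neural fates when aggregated in retinoic acid. The control was the unmodified line, and the other line was P19 cells that constitutively express human LIN28A, which binds let-7 microRNA precursors and stops their processing. Cells of both lines were aggregated in serum-containing medium with 5e-07 M all-trans retinoic acid for 4 days, and 2 arrays were made per line, numbered 1 and 2. The control line carries no vector. The sources used here do not say whether the LIN28A line is 1 clone or a pool. Nothing in the labels says that the repeats were separate cultures, so each p-value reflects the spread of these 4 arrays alone, which may be technical.

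A collagen chain is a run of glycine-led triplets that winds with other chains into a triple helix. In the endoplasmic reticulum, prolyl 4-hydroxylases add the hydroxyl groups that keep the helix folded at body temperature, lysyl hydroxylases modify lysines that later carry sugars and cross-links, and Serpinh1 (Hsp47) binds the folded helix on its way to the Golgi. Outside the cell, lysyl oxidases oxidise lysines so that neighbouring molecules become covalently joined. Fibrillar collagens (types I, II, III, V and XI) pack into banded fibrils of connective tissue, whereas type IV collagen forms the sheet-like network of basement membranes, which also surrounds the neural tube.

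The promoters of the processing enzymes are shown first. The enzymes lay to the same side in most comparisons, as did most genes of a list of oxygen-responsive genes. That list was chosen with earlier results of these data known. Whether the promoter sequences or the oxygen response have a part in the enzyme differences was not tested. Several of the enzymes, among them Lox, P4ha1, P4ha2 and Plod2, are textbook targets of the hypoxia-inducible factors, which bind elements built on the cores ACGTG and GCGTG. RefSeq (GRCm38.p6) promoter windows were matched by symbol for 33 of the 46 members. The windows below are the 250 bases before the transcription start of the enzymes with a mean intensity of at least 16 and an entry in the table, written 5′ to 3′ on the gene's strand. They lie at chr10:59323046-59323295, plus strand (P4ha1), chr11:54100674-54100923, plus strand (P4ha2), chr4:147936777-147937026, minus strand (Plod1), chr5:136986769-136987018, plus strand (Plod3) and chr7:99353240-99353489, minus strand (Serpinh1). Capitals mark every match to ACGTG or GCGTG on either strand, so that the reverse forms CACGT and CACGC are marked too, and no marked match overlaps another.
P4ha1: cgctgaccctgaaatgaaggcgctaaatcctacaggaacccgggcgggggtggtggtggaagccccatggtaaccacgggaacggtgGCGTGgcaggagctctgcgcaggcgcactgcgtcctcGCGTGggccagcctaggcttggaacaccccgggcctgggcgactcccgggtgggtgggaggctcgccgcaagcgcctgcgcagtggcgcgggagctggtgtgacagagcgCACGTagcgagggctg
P4ha2: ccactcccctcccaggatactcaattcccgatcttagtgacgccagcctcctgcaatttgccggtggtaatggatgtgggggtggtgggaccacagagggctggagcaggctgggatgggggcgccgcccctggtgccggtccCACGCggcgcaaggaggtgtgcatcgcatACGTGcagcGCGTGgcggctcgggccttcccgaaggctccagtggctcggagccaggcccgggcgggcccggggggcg
Plod1: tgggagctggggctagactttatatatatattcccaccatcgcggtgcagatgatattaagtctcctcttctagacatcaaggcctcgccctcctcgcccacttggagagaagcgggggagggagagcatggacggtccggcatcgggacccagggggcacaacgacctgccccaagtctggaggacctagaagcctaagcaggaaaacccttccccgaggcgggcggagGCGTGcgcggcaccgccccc
Plod3: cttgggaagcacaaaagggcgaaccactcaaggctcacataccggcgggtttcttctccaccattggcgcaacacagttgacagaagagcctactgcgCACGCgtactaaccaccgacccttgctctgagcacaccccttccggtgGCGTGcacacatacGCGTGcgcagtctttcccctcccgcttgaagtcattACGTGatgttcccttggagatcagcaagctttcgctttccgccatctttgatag
Serpinh1: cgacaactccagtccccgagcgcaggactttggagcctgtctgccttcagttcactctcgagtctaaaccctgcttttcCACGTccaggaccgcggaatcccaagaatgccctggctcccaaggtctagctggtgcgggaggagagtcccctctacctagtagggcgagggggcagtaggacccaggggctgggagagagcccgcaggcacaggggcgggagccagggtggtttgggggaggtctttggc

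The marked cores numbered 3 in P4ha1, 3 in P4ha2, 1 in Plod1, 4 in Plod3 and 1 in Serpinh1. At least 1 core was present for 6 of 6 processing genes with a window, counting the dim Loxl4 and the chaperone Serpinh1. The same held for 10 of 27 collagens with a window. Lox, Loxl1, Loxl3 and Plod2 had no window and were not searched. The enzyme windows held 55.6% (Plod3) to 76.0% (Loxl4) G and C, and the collagen windows 35.2% (Col3a1) to 76.4% (Col5a1). Over all 32851 windows of this length in the table, 38.6% held either core (16.6% held ACGTG and 28.2% held GCGTG), and among the 13478 windows with at least 55% G and C the share was 58.3%. A match of 5 letters is a description of the sequence and not a bound site.

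The deposited values were linear intensity values that the authors had already scaled: trimmed of 2% at either end, the array means lay at 150.1 throughout. The median intensity was lowest in LIN28A array 1 (29.0) and lay between 35.8 and 38.6 in the other arrays. Neural markers were present in both lines: Sox2, a neural progenitor transcription factor, read 1902.3 and 1697.3 in controls, against 1557.0 and 1294.6 in LIN28A arrays, and Tubb3, a neuronal tubulin, read 507.8, 539.7, 372.4 and 644.1. Tubb3 was the least different of 6 neuronal markers, whose values are given beside the processing enzymes. The 6 neural progenitor markers, which include Sox2, were split: 3 lay above 0 (Pax6, Nes and Notch1) and 3 below 0 (54.9% of tested genes). Their median difference was -0.12, with 0.38 between the number 1 arrays and -0.60 between the number 2 arrays. Human LIN28A itself was not measured by the mouse probe sets used here. Differences below are LIN28A minus control on the log2(value + 16) scale, which understates the change of dim genes, and each gene is read from its probe set with the highest mean on that scale. Levels are compared between arrays for 1 gene and not between genes.

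Of the 46 members, 25 reached a mean intensity of 16 over the 4 arrays and 21 did not. Col6a2 lay just inside this limit at 16.25 and Col9a2 just outside at 15.75. The filter on dim probe sets let 31 members through to the test, of which 6 were under a mean of 16. By limma with Benjamini-Hochberg adjustment over 15838 probe sets, 0 members passed an adjusted p of 0.05, and 0 of 8930 tested genes (0%) did. The lowest adjusted p of a member was 0.999997. At an unadjusted p under 0.05, 1 member lay higher in LIN28A (Col3a1; 0.493% of tested genes) and 1 lay lower (Lox; 1.34% of tested genes). Both LIN28A arrays exceeded both control arrays in 5 of the 31 tested members (11.5% of tested genes), and both lay below in 5 (16.6% of tested genes). These shares of the members are near the background. In bulk RNA, fewer cells of a type and less RNA per cell cannot be told apart.

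**Figure D1:**
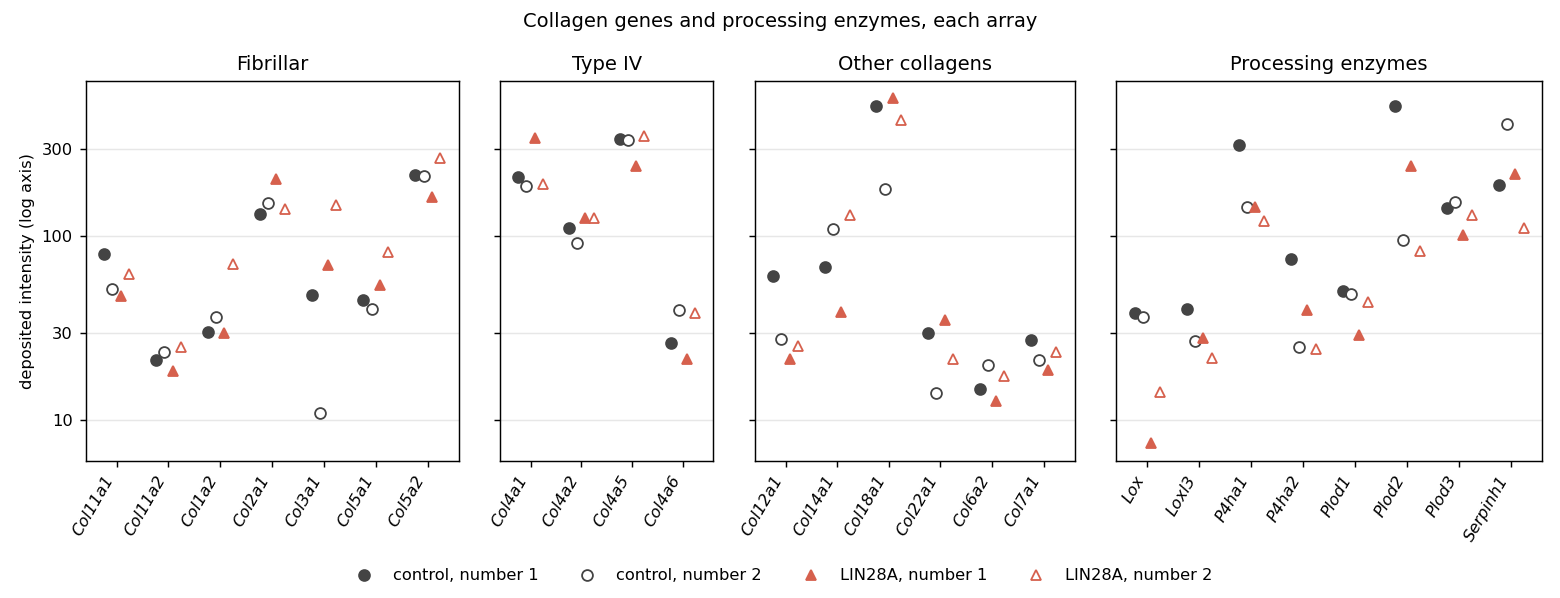
Intensity (log10 axis) of the 25 members with a mean of at least 16 in each of the 4 arrays, with control arrays and LIN28A arrays as separate symbols. Lox and Col3a1 show the widest separation of the lines without overlap, whereas Plod2, Serpinh1 and Col18a1 differ widely between the arrays of 1 line.

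Among the fibrillar collagens, Col3a1 stood apart from its class in size, and the remaining genes were near 0 on average. The 9 measured genes were Col1a1, Col1a2, Col2a1, Col3a1, Col5a1, Col5a2, Col5a3, Col11a1 and Col11a2, of which 8 were tested and 7 reached a mean of 16. None passed the adjusted test in limma, 4 of the 8 tested lay above 0 and 4 below, and 2 lay above 0 in both replicate numbers (25.7% of tested genes). The median difference was 0.11 (-0.06 between the number 1 arrays and 0.25 between the number 2 arrays), beside -0.04 over all tested genes, and it was -0.11 without LIN28A array 2. The split depended on the scaling of the arrays: 6 lay above 0 and 2 below with quantile normalization, and 7 above and 1 below with median centring. With these scalings 5 and 4 of the 8 lay above 0 in both numbers (30.3% and 40.1% of tested genes), and both LIN28A arrays exceeded both control arrays in 5 and 4, against 2 as deposited (14.5% and 19.9% of tested genes, against 11.5%). Across all tested probe sets the median difference was -0.05 as deposited, 0.01 with quantile normalization and 0.08 with median centring, so differences of that size carry no direction.

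Col3a1, the single chain of type III collagen in vessels, skin and loose mesenchyme, read 48.3 and 10.9 in controls, against 70.2 and 147.9 in LIN28A arrays. The lines did not overlap: LIN28A array 2 was the highest and control array 2 the lowest. The difference was 1.52 (SE 0.53 in limma), made up of 0.42 between the number 1 arrays and 2.61 between the number 2 arrays, and the adjusted p was 0.999997. Without control array 2 the difference was 0.89, and without control array 1 it was 2.14. The second Col3a1 probe set read 9.4, 4.6, 12.2 and 36.9 in the same order of arrays, and differed by 0.76 in the same direction.

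Col5a1, a chain of the type V collagen that nucleates fibrils, read 44.9 and 40.4 in controls, against 54.5 and 82.3 in LIN28A arrays. The lines did not overlap, and the difference was 0.51 (SE 0.31), with 0.21 and 0.80 in numbers 1 and 2. In the other Col5a1 probe sets the lines overlapped, with differences of 0.263 and 0.255. The first of these was nearly as bright, with a mean of 53.75, so the separation of the lines depended on the probe set. The partner chain of Col5a1, Col5a2, read 216.8 and 213.2 in controls, against 164.3 and 265.2 in LIN28A arrays. The LIN28A arrays of Col5a2 lay on either side of the control arrays, and its difference was -0.04 (SE 0.33). The chains pair in 1 heterotrimer, and the difference between their values was not tested.

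Col2a1, the chain of cartilage and notochord type II collagen, read 132.6 and 152.3 in controls, against 204.4 and 141.1 in LIN28A arrays. LIN28A array 1 was the highest and the lines overlapped, with a difference of 0.23 (SE 0.31). Col11a1, which is built into the same cartilage fibrils, read 80.1 and 51.7 in controls, against 47.5 and 62.5 in LIN28A arrays. The lines overlapped here too, and the differences in numbers 1 and 2 were -0.60 and 0.21. Col1a2, a chain of type I collagen of bone and skin, read 30.2, 36.5, 30 and 71.2, so that LIN28A array 2 alone stood above the rest. Its partner Col1a1 was dim in every array, with 3.4 to 10.5, and was not tested. Col11a2 differed by -0.02 (0.16 with quantile normalization and 0.11 with median centring) and Col5a3, with a mean under 16, by -0.02.

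The type IV collagens were measured for all 6 chains, of which 4 were tested and reached a mean of 16. None passed the adjusted test in limma, 2 lay above 0 and 2 below (3 and 1 with either other scaling), and the median difference was 0.09 (0.00 in number 1 and 0.05 in number 2). Col4a1 and Col4a2, the chains of the common basement membrane network, start 21 bases apart and head to head on mouse chromosome 8 (GRCm38.p6). Col4a1 read 210.8 and 188.2 in controls, against 344.7 and 192.7 in LIN28A arrays. Only LIN28A array 1 stood out, the lines overlapped, and the difference was 0.35 (SE 0.36), with 0.67 and 0.03 in the numbers. The other Col4a1 probe set read 61.8 and 56.8 in controls, against 32.5 and 42.1 in LIN28A arrays. Both LIN28A arrays lay below both control arrays in that probe set, with a difference of -0.50, so the direction for Col4a1 depended on the probe set. Col4a2 read 110.4 and 92.3 in controls, against 126.1 and 125.7 in LIN28A arrays. The lines did not overlap, and the difference was 0.28 (SE 0.28).

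Col4a5 and Col4a6, whose starts lie 1343 bases apart on the X chromosome, form a second network found in smooth muscle and some epithelia. Col4a5 read 339.9 and 335.5 in controls, against 240.1 and 350.2 in LIN28A arrays. LIN28A array 1 was the low value and the lines overlapped, with a difference of -0.21 (SE 0.31). Col4a6 read 26.4 and 39.9 in controls, against 21.6 and 38.4 in LIN28A arrays. Here the number 2 arrays were the higher ones in both lines, and the difference was -0.11 as deposited, 0.04 with quantile normalization and 0.02 with median centring. Col4a3 and Col4a4, the chains of the adult glomerular network, did not exceed 16.1 in any array and were not tested.

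The comparison of the fibrillar with the type IV class gave a difference smaller than the spread between the numbers. The fibrillar median minus the type IV median was 0.02 over all arrays, -0.05 in number 1 and 0.21 in number 2 (SD of the numbers 0.19). The order of the classes therefore turned between the numbers. This value was not tested. A two-sided exact permutation test of 2 arrays against 2 goes no lower than p = 0.333.

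**Figure D2:**
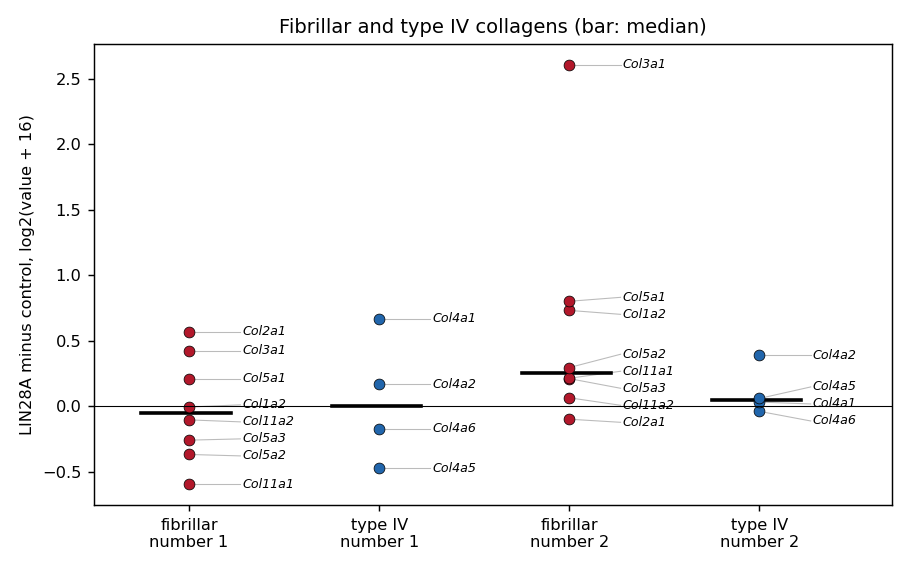
LIN28A minus control difference, log2(value + 16), of each tested fibrillar (8 genes) and type IV (4 genes) collagen within replicate number 1 and number 2, with a bar at the class median. The classes overlap in both numbers, and Col3a1 in number 2 (2.61) lies far above every other point.

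The collagens of the remaining classes were mostly dim. Of 21 such genes, 11 were tested and 6 reached a mean of 16, and none of the tested genes passed the adjusted test in limma. Col18a1, a basement membrane proteoglycan-collagen whose end fragment is endostatin, read 511.1 and 181.4 in controls, against 563.3 and 428.6 in LIN28A arrays. Control array 2 was the low one, and the difference of 0.65 (SE 0.51) was -0.05 without that array and 1.36 without control array 1. The second Col18a1 probe set read 259.8, 87.4, 262.4 and 204.3 and had the same low array. Col12a1, a chain that decorates the surface of fibrils, read 60.8 and 27.6 in controls, against 21.6 and 25.5 in LIN28A arrays. Both LIN28A arrays lay below both control arrays, and the difference was -0.55 (SE 0.37), with -1.03 and -0.07 in numbers 1 and 2. Col14a1, of the same fibril-associated group, read 68.0 and 110.1 in controls, against 38.8 and 130.7 in LIN28A arrays. Number 2 was the higher in both lines, by 1.0 on average, whereas the lines differed by -0.20.

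Col22a1 of tissue junctions read between 14 and 35.1, with a difference of 0.24. It was positive in both numbers but -0.07 without control array 2. Col7a1, the chain of anchoring fibrils, and Col6a2, a chain of beaded filaments, differed by -0.12 and -0.10. Both lay above 0 with quantile normalization (0.03 and 0.11) and median centring (0.01 and 0.02). The brightest Col6a2 probe set is of a kind whose probes can match related sequences. The other 15 genes of these classes had means under 16: Col9a1, Col9a2, Col16a1, Col20a1 and Col26a1 were tested, and Col6a1, Col6a3, Col8a1, Col9a3, Col10a1, Col13a1, Col15a1, Col17a1, Col19a1 and Col25a1 were not. No value of a member with a mean under 16 exceeded 26.4 in any array, the value of Col9a2 in LIN28A array 2.

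The collagen-processing genes lay to the lower side in LIN28A cells as a class, and the collagen chains were split around 0; the difference between the classes was not tested. Of 10 such genes measured, 8 were tested and reached a mean of 16, and Loxl1 and Loxl4 were too dim. None of the 8 passed the adjusted test in limma. The difference was below 0 in 8 of 8 as deposited (54.9% of tested genes), with quantile normalization (48.7%) and with median centring (38.4%). It was below 0 in both numbers in 7 (32.6% of tested genes). With quantile normalization and with median centring it was so in 6 (27.7% and 20.4% of tested genes). Both LIN28A arrays lay below both control arrays in 3 of the 8 (Lox, Plod1 and Plod3), as in 16.6% of tested genes. None lay above 0 in both numbers (25.7% of tested genes). The median difference was -0.49 (-0.64 in number 1 and -0.19 in number 2), beside 0.02 over the 23 tested collagens and -0.04 over all tested genes. Without control array 1 it was -0.21, and without control array 2 it was -0.70.

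Lox, the lysyl oxidase that cross-links collagen and elastin, read 38.5 and 36.3 in controls, against 7.5 and 14.3 in LIN28A arrays. The means were 37.4 ± 1.56 (SD, n = 2) and 10.9 ± 4.81 (SD, n = 2), and no arrays of the lines overlapped. The difference was -1.0 (SE 0.29 in limma; -1.21 and -0.79 in numbers 1 and 2), with an adjusted p of 0.999997. Lox was the only member past 0.5 on this scale in the same direction in both numbers. Leaving out 1 array at a time moved it between -1.18 and -0.82, and a pseudocount of 1 or 64 gave -1.75 or -0.44. The LIN28A values lie below the pseudocount of 16, and the other 2 Lox probe sets were dimmer still, reading 6.8, 13.2, 5.4 and 3.8 (a difference of -0.33) and 0.4, 0.3, 4.8 and 2.4 (a difference of 0.26). Loxl3, a related oxidase, read between 26.9 and 40.5 in control and between 21.8 and 28.1 in LIN28A arrays, with a difference of -0.27.

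P4ha1, the main catalytic subunit of prolyl 4-hydroxylase, read 313.5 and 143.9 in controls, against 144.1 and 121.9 in LIN28A arrays. Control array 1 stood above the other 3, and control array 2 and LIN28A array 1 were level, so the lines overlapped. The difference was -0.63 (SE 0.41), and -0.11 without control array 1. Its second probe set read 51.1, 59.7, 11.6 and 39.2, where both LIN28A arrays lay below both control arrays (difference -0.87). P4ha2, the alternative subunit, read 75.1, 24.9, 39.6 and 24.5, and its difference of -0.36 became 0.21 without control array 1.

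Plod2, the lysyl hydroxylase of the collagen ends that form stable cross-links, read 514.6 and 95.8 in controls, against 241.3 and 82.8 in LIN28A arrays. The number 1 arrays were the high ones in both lines: number 2 minus number 1 was -1.81, against -0.61 (SE 0.82) between the lines. Without control array 1 the line difference was 0.51, and without control array 2 it was -1.73. Plod3, which also adds sugars to hydroxylysine, read 143.2 and 153.4 in controls, against 101.9 and 131.1 in LIN28A arrays. Both LIN28A arrays lay below both control arrays, with a difference of -0.32 (SE 0.29). Plod1 read 50.7 and 48.4 in controls, against 29.2 and 44.1 in LIN28A arrays, again without overlap, with a difference of -0.33 (SE 0.30).

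Serpinh1, the collagen-specific chaperone, read 190.5 and 407.5 in controls, against 217.8 and 111.4 in LIN28A arrays. Control array 2 was the highest and LIN28A array 2 the lowest, and the number 1 arrays of the lines were close. The difference was -0.78 (SE 0.48), with 0.18 and -1.73 in the numbers. Leaving out control array 2 gave -0.26. The second Serpinh1 probe set, whose probes can match related sequences, read 219.5, 289.9, 258.7 and 49.7, with 0.22 and -2.22 in the numbers. Among the 8 tested genes of the class, Serpinh1 alone differed in sign between the numbers; of the untested genes Loxl1 did so too.

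**Figure D3:**
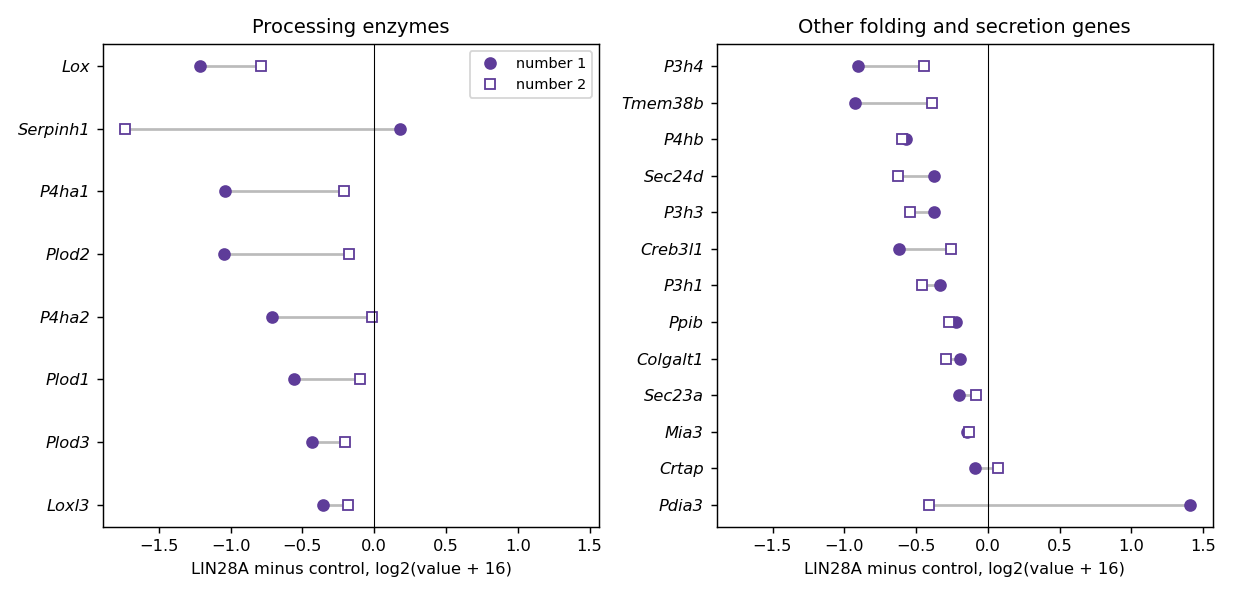
LIN28A minus control difference, log2(value + 16), within number 1 (filled circles) and number 2 (open squares), for the 8 tested processing enzymes on the left and 13 tested folding and secretion genes on the right. Most points lie left of 0, and Serpinh1, Pdia3 and, by a small margin, Crtap have their numbers on opposite sides of 0.

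Most genes of the oxygen-responsive list also lay below 0. Of 12 listed genes 11 were measured and 10 were tested, and 9 of the 10 were below 0, 6 of them in both numbers, with a median difference of -1.03 (-1.01 in number 1 and -0.68 in number 2). Over all tested genes, 54.9% were below 0 and 32.6% were so in both numbers. With quantile normalization and with median centring, 8 of the 10 were below 0 (48.7% and 38.4% of tested genes). In number 2, Bnip3, Car9, Egln3 and Higd1a lay above 0 (0.18, 0.63, 0.31 and 0.56). None of the list passed the adjusted test in limma, and 3 (Vegfa, Ndrg1 and Ero1a) lay lower at an unadjusted p under 0.05, as did 1.34% of tested genes. Vegfa, the vascular growth factor, read 117.7 and 151.4 in controls, against 41.1 and 49.0 in LIN28A arrays. The summed intensity of the list was 6079.3 and 2624.7 in controls, against 3370.9 and 1785.2 in LIN28A arrays. The sum was higher in the number 1 array of each line, and most of it came from Slc2a1, Higd1a and Bnip3. Vegfa and Ddit4 were instead higher in the number 2 array of each line. Among the enzymes, P4ha2, Loxl3 and the brighter probe sets of Plod2 and P4ha1 were higher in number 1 of each line. Plod3 and the second P4ha1 probe set were higher in number 2 of each line. The second Plod2 probe set was higher in number 1 in control and in number 2 in LIN28A cells. The neuronal marker list also lay lower in LIN28A arrays: 6 of 6 tested genes were below 0 (5 with median centring) and 5 were below 0 in both numbers, with a median difference of -0.69 (-0.55 in number 1 and -0.40 in number 2). Stmn2, a neuronal microtubule regulator, read 820.7 and 902.1 in controls, against 216.1 and 626.9 in LIN28A arrays, a difference of -1.18. The summed level of the neuronal markers was 2012.7 and 2982.7 in controls, against 1047.5 and 2301.1 in LIN28A arrays. None passed the adjusted test in limma. The part of the oxygen-responsive genes and of neuronal cells in the enzyme differences was not tested.

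The other genes of collagen folding and secretion lay on the same side as the processing enzymes. Of 18 listed, 14 were measured and 13 tested. None passed the adjusted test in limma, 12 of 13 lay below 0 (11 with either other scaling), 11 below 0 in both numbers (11 with quantile normalization and 9 with median centring), and both LIN28A arrays lay below both control arrays in 7 (7 and 4). The same shares over all tested genes were 54.9% below 0, 32.6% below 0 in both numbers and 16.6% without overlap as deposited. They were 48.7%, 27.7% and 13.7% with quantile normalization, and 38.4%, 20.4% and 9.03% with median centring. The median difference was -0.39 (-0.33 and -0.39 in numbers 1 and 2). P4hb, the disulfide isomerase that is the beta subunit of prolyl 4-hydroxylase, read 2852.6 and 2183.7 in controls, against 1920.5 and 1438.8 in LIN28A arrays. The lines did not overlap, and the difference was -0.58, with -0.57 and -0.60 in the numbers. Ppib, the endoplasmic reticulum cyclophilin that speeds proline isomerisation in the helix, read 2430.4 and 2190.2 in controls, against 2079.2 and 1814.1 in LIN28A arrays, a difference of -0.25 without overlap. P3h4 and Tmem38b, chosen after their values were seen, had the lowest differences of the list (-0.67 and -0.66). P3h4 belongs to a lysyl hydroxylation complex, and Tmem38b is an endoplasmic reticulum ion channel needed for normal collagen modification. Pdia3, a general disulfide isomerase, was the 1 tested gene of the list above 0 as deposited, at 0.50, with 1.41 in number 1 and -0.41 in number 2. Crtap, at -0.01, also changed sign, with -0.09 in number 1 and 0.07 in number 2.

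Apart from the lysyl oxidases given above, of which Lox and Loxl3 were tested and lay below 0, the listed genes that act on collagen outside the cell showed no such shared side. Among 4 tested procollagen proteinases and enhancers (of 6 measured), the median difference was 0.08 and none passed the adjusted test in limma. Pcolce, which enhances removal of the procollagen end, read 81.6, 67.2, 78.5 and 211.3, and Bmp1, the proteinase itself, read 60.2, 79.5, 41.8 and 82.8. The Pcolce difference of 0.70 came from the number 2 arrays (1.45, against -0.05 in number 1). Among 4 tested collagenases and inhibitors (of 10 measured), the median was -0.23: Timp2 differed by 0.02 and Mmp14, the membrane collagenase, by -0.48. Among 3 tested collagen receptors (of 6 measured), Ddr1, a collagen-binding kinase, read 2572.7, 2083.4, 2016.3 and 1624.3 (difference -0.35), and the integrin subunit Itgb1 read 194.1, 210.3, 144.6 and 246.7 (difference -0.09). The third, Mrc2, an endocytic receptor that takes up collagen, lay the other way: it read 58.9 and 71.4 in controls, against 90.5 and 133.6 in LIN28A arrays, without overlap (difference 0.64).

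Collagen-binding matrix genes and basement membrane partners had medians on opposite sides of 0 in the numbers. The 8 tested matrix genes (of 14 measured) had a median of -0.30 in number 1 and 0.52 in number 2. In both numbers 1 lay below 0 (32.6% of tested genes) and 1 above 0 (25.7% of tested genes). Fn1, fibronectin, read 443.0, 540.1, 433.1 and 501.5 with a difference of -0.07, and Sparc, a collagen-binding protein, read 396.3, 352.0, 277.5 and 563.3 with -0.49 and 0.65 in the numbers. The 9 tested basement membrane partners (of 11 measured) had a median of -0.29 in number 1 and 0.15 in number 2. Of these 9, 4 lay above 0 in both numbers (25.7% of tested genes) and 2 below 0 in both (32.6% of tested genes). Lamb1, a laminin chain of the network that type IV collagen binds, was the 1 pathway gene outside the members at an unadjusted p under 0.05 in limma. It read 83.8 and 45.6 in controls, against 106.8 and 272.7 in LIN28A arrays, a difference of 1.26 (0.30 and 2.23 in the numbers). Its array order, with control array 2 lowest and LIN28A array 2 highest, was that of Col3a1. The brightest partners, Agrn and Lama1, differed by -0.10 and -0.27, and the number 2 arrays were the higher ones in each line.

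Markers of other cell types that make these collagens were examined beside Col3a1, Col5a1 and Col1a2. The summed level of 10 fibroblast and mesenchyme markers was 4304.4 and 4242.5 in controls, against 3795.8 and 3149.2 in LIN28A arrays, most of it Vim, which neural progenitors also express. The median difference of the 7 tested was -0.07, with -0.47 in number 1 and 0.43 in number 2. Twist1, a mesenchymal transcription factor, read 106.2 and 30.3 in controls, against 39.3 and 64.6 in LIN28A arrays. Of 6 smooth muscle markers 4 were tested and lay above 0 in both numbers (25.7% of tested genes), with a median of 0.57. The summed level of all 6 was 173.4 and 101.8 in controls, against 273.8 and 219.1 in LIN28A arrays. Acta2 and Myl9, contractile genes, had both LIN28A arrays above both control arrays (11.5% of tested genes). In limma both lay higher at an unadjusted p under 0.05, as did 0.493% of tested genes, and none of the list passed the adjusted test. Myh11, the defining myosin, did not exceed 6.9 in any array. Endoderm markers, 10 genes, summed to 115.0 and 54.0 in controls, against 75.9 and 92.3 in LIN28A arrays, and 1 of them reached a mean of 16. Endothelial markers, 6 genes, summed to between 24.4 and 36.3 in all arrays, and 0 reached a mean of 16. The 8 measured chondrocyte and notochord markers summed to between 226.7 and 266.8. The part of mesenchymal or smooth muscle cells in the Col3a1 and Col5a1 differences was not tested.

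The replicate number weighed more than the line for most members, as it did for most tested genes. Of the 25 members with a mean of at least 16, 14 differed more between the numbers than between the lines, as did 63.2% of all tested genes. The sign of the line difference was opposite in the numbers for 9 of the 25. It was negative in both for 10 and positive in both for 6. Among all 7918 tested genes with a mean of at least 16, it was negative in both for 2454 and positive in both for 2198. The arrays of the lines overlapped for 18 of the 25 members. They lay apart with LIN28A higher for 3 (Col3a1, Col5a1 and Col4a2) and with LIN28A lower for 4 (Lox, Col12a1, Plod1 and Plod3). Over all 7918 tested genes with a mean of at least 16, the shares were 12.4% higher and 15.2% lower, so these counts are near the background.

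**Figure D4:**
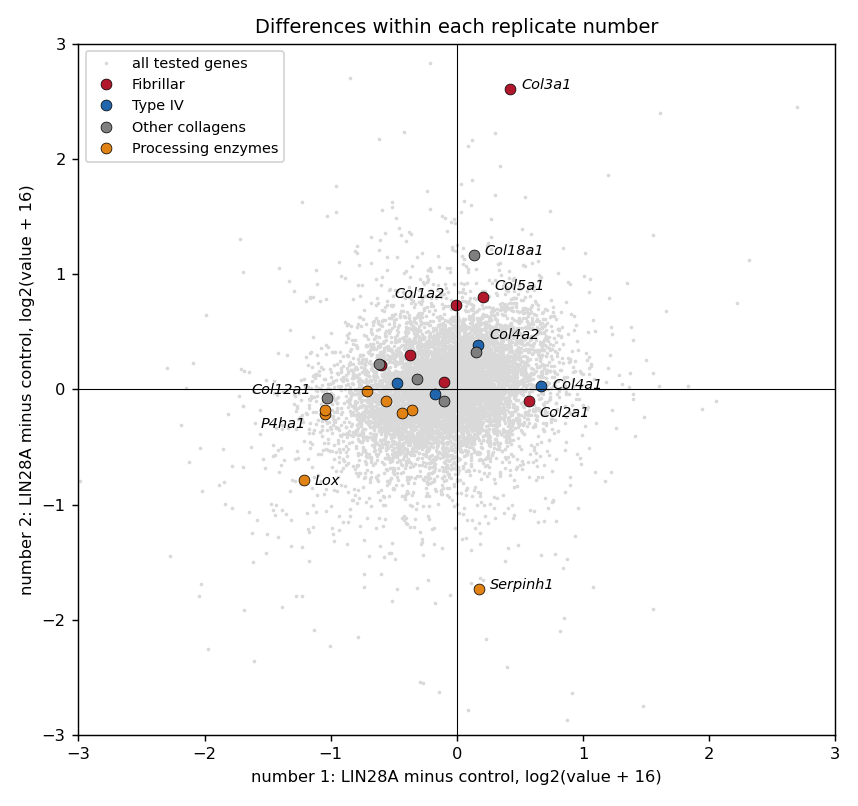
LIN28A minus control difference, log2(value + 16), in number 1 (x axis) against number 2 (y axis) for 25 members with a mean of at least 16, coloured by class, over all tested genes in grey. Axes end at 3 in either direction, which leaves out 5 grey genes; the processing enzymes lie at or below 0 on the y axis, and Col3a1 and Serpinh1 lie far from the diagonal.

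Probe sets of 1 gene gave a further view of precision. Several probe sets were present for 24 of the 46 members and for 16 of the 25 with a mean of at least 16. In 5 of these 16 (Col5a2, Col1a2, Col4a1, Col4a6 and Lox), probe sets lay on both sides of 0. All probe sets of Col3a1, Col5a1, Col18a1, P4ha1, Plod2 and Serpinh1 lay on 1 side of 0. Of the Col5a1 probe sets, only the brightest kept the arrays of the lines apart. The second Plod2 probe set read 197.3, 146.6, 96.1 and 136.2, with both LIN28A arrays below both control arrays and a difference of -0.51, near the -0.61 of the brighter one but without its gap between the numbers.

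**Figure D5:**
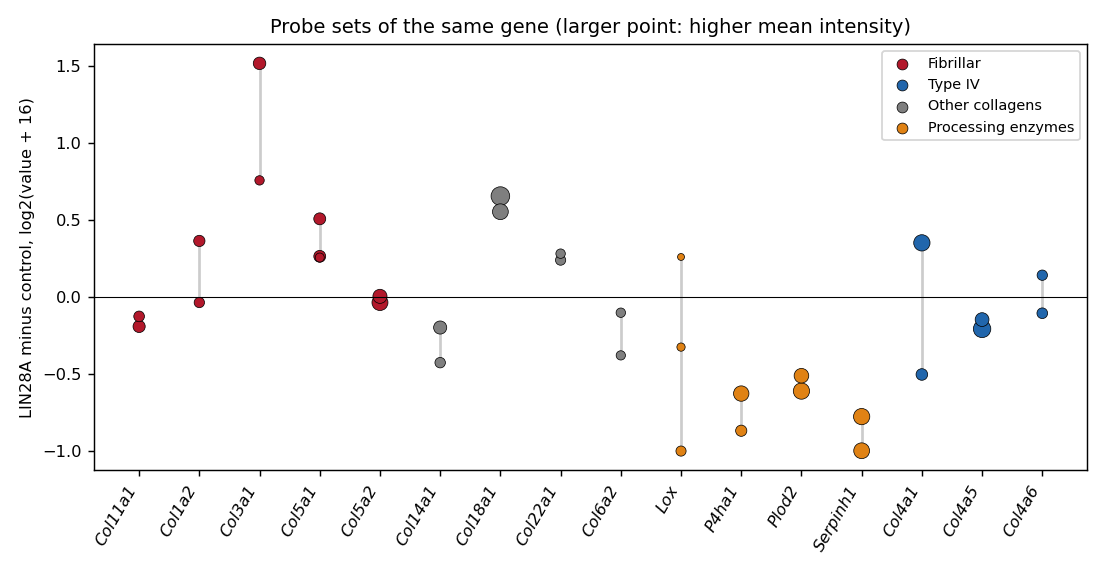
LIN28A minus control difference, log2(value + 16), of every probe set of the members that have several probe sets and a mean intensity of at least 16, 1 line per gene, with larger points for brighter probe sets. Points of Col4a1 and Lox lie on both sides of 0, and the points of P4ha1, Plod2 and Serpinh1 lie below 0.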

How the data were processed

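RNA of 4 samples was measured on 1-colour Affymetrix arrays from oligo(dT)-primed, biotin-labelled cRNA, per the labels' protocols. The authors deposited linear intensity values for 22690 probe sets in 1 table. The sources used here do not name the software that summarised and scaled them, and the table holds no detection calls. Trimmed means (2% at each end) were equal between arrays, so no further scaling was applied.

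The members and gene lists were chosen with earlier results of these data known. Of 22690 probe sets, 64 controls were left out and 20380 had 1 gene symbol in the platform annotation, 691 had several (1 of them including a member, not used) and 1555 had none. Values became log2(value + 16). Probe sets with a mean below the 30th percentile, or about 8.04 in linear units, were dropped, and 15838 were kept. The lines were compared with limma 3.58.1 in R 4.3.3 (lmFit and eBayes, no block), with p-values adjusted by Benjamini-Hochberg and called at 0.05. The procedure was run on simulated arrays. The planted changes there were larger than the line difference of any member over all arrays, so that run cannot show whether changes of the reported size would be called. Alternatives were other scalings, pseudocounts, filters, probe set rules, a block and leaving out each array. With 2 arrays a group, the number of arrays limits the precision.

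Every member with a mean of at least 16 was named. Values of all 4 arrays were fixed for Col3a1, the 4 brightest fibrillar, type IV and processing genes, members at an unadjusted p under 0.05, and members past 0.5 the same way in both numbers. Of other pathway lists, the 2 brightest genes and those at an unadjusted p under 0.05 were taken. Other values were added after being seen. Motifs were searched in RefSeq promoter windows (GRCm38.p6), cut to the 250 bases before the start.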

Additional observations from a re-analysis of the deposited data

How the results depend on the processing

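No member passed the adjusted test in limma under any of 12 alternatives, and the fibrillar and enzyme medians moved by less than their spread between the numbers (SD 0.22 and 0.31), although the shifts in log2 units were as large: leaving out 1 array gave -0.11 to 0.19 and -0.70 to -0.21. The type IV median of 0.09, over 4 genes, moved past its spread between the numbers (SD 0.03), which was small: it was 0.17 with quantile normalization (also in the replicate block with quantile normalization), 0.21 with median centring, -0.067 with no filter, 0.28 with a filter at the 50th percentile, -0.030 with the mean of a gene's probe sets and 0.28 with Col15a1 and Col18a1 in the list. Leaving out 1 array at a time gave -0.046 to 0.13. With Col15a1 and Col18a1 in the basement membrane list, the fibrillar minus basement membrane median was -0.17, against 0.02. Fewer genes or other genes entered under the filter and list alternatives, and the cause of the other shifts was not tested.

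The arrays share a number in the labels and nothing more. With the replicate block, 1 probe set was called higher by limma (3 together with quantile normalization) and 0 lower, against 0 without it, and the lowest adjusted p of a member was 0.43 (Lox). At an unadjusted p under 0.05 the block gave 468 higher and 890 lower probe sets, against 70 and 192. Deviations of same-numbered arrays correlated at 0.62. Low signal limits Lox and the members under a mean of 16, for which no detection call was used here.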
